A study of Mus musculus with 18 samples.

Results

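The windows described here are stretches of 10000 bases of the mouse genome that were free of both lamin B1 and H3K9me3 calls in young liver and carried both in old liver. They were chosen by the deposited region lists themselves: a window of chromosomes 1 to 19 belongs when it lies in the old lamin B1 list and in the old H3K9me3 list, and in neither young list. In all, 20730 of 246285 windows met this rule, 207.3 Mb of sequence. They made up 22.3% of the 93025 windows in the old lamin B1 list and 33.6% of the 61641 windows in the old H3K9me3 list. Of the windows with sequence at most 50% unknown, 8.65% gained both. Shares of windows by class, GC content or chromosome and densities per Mb or per kb refer to those windows, while distances, runs, genes and numbers of Foxa2 sites cover all windows. The opposite change, from both marks in young to neither in old liver, was found in 3408 windows. The young lists cover fewer windows than the old, 46617 for lamin B1 and 57556 for H3K9me3. The part of list size in these counts was not tested. The old H3K9me3 list holds 2492 regions on these chromosomes. The deposited H3K9me3 lists of both ages are shorter than the sets of regions that the study describes. Which windows count as gained, as free of H3K9me3 in young liver or as gaining lamin B1 alone therefore depends on the deposited calls.

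Liver chromatin came from male C57BL/6 mice aged 3 months (young) or 21 months (old), and was immunoprecipitated with antibodies to lamin B1 or to H3K9me3. Whole liver was used, so the lists average over hepatocytes and the other cells of the tissue. Foxa2 sites came from other animals, males aged 12 weeks that either lacked Zmpste24 or were wild-type littermates. The methods name no strain for these animals. Zmpste24 is the protease that matures prelamin A, and mutants serve as a model of premature ageing with a defective lamina. Each lamin B1 and H3K9me3 list merged 2 replicates of an age, and each Foxa2 list merged 3 replicates of a genotype, so no value below carries a spread between mice and no difference was tested. Intervals given with shares and densities are 95% Wilson or exact Poisson intervals that cover counting error only, and neighbouring windows are not independent.

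Lamin B1 is a component of the nuclear lamina, the protein mesh under the inner nuclear membrane. Long stretches of silent chromatin attach to it, and these lamina-associated domains are typically poor in genes and rich in A and T. H3K9me3, trimethylation of lysine 9 of histone H3, marks constitutive heterochromatin, repeats and clusters of silenced genes. Foxa2 is a forkhead pioneer factor that opens chromatin at liver genes.

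Foxa2 sites called in both genotypes were rare in these windows (56 of 1353), and 21 of the 56 held the forkhead core TGTTTAC on either strand. The sites below are those with a core in the longest runs of windows, each 51 bases of the plus strand of GRCm38 around the core, which is in capitals.

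Intergenic near Inhbb, chr1:119295325-119295375: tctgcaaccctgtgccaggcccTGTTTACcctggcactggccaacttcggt
Intergenic near Sall1, chr8:89444648-89444698: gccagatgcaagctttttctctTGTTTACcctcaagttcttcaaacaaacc
Ing1 intron, chr8:11557865-11557915: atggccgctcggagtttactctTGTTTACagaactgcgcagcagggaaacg
Sfrp1 intron, chr8:23435835-23435885: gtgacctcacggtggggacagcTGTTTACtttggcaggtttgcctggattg
Gm44717 intron, first site, chr8:11140791-11140841: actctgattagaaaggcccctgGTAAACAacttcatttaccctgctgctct
Gm44717 intron, second site, chr8:11148928-11148978: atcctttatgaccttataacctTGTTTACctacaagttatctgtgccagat

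The first lies between genes, 126.9 kb from the start site of Inhbb, a subunit of activins and inhibins, in a run of 650 kb. The second also lies between genes, 400.5 kb from the nearest protein-coding start site, that of the zinc finger factor Sall1, in a run of 640 kb with no start site of its own. The site in Ing1, a chromatin-associated growth suppressor, is 2.34 kb from its start. Sfrp1 encodes a secreted inhibitor of Wnt signalling, and its site is 24.6 kb from the start. The last 2 sites share a run of 410 kb with Col4a1 and Col4a2, the paired collagen IV genes of basement membranes, and lie 132.5 and 140.6 kb from the start site of Irs2.

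Beside the shared sites, 496 Foxa2 sites of the mutants only fell into the windows. The protein-coding start sites closest to one were those of Chrna3, a subunit of nicotinic acetylcholine receptors (20 bp from the middle of the site), Selplg, the P-selectin ligand of leukocytes (170 bp), 6430571L13Rik (285 bp), Emx1, a homeobox factor of the forebrain (333 bp), Irx3, an Iroquois homeobox factor (411 bp), and Tcp11, a testis gene (419 bp). The 250 bases before the start sites of Chrna3 and Irx3 are shown on the strand of the gene, with matches to the Sp1 word CCCTCCC and the Klf word GGGCTGG on either strand in capitals.

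Chrna3, minus strand, chr9:55026563-55026812: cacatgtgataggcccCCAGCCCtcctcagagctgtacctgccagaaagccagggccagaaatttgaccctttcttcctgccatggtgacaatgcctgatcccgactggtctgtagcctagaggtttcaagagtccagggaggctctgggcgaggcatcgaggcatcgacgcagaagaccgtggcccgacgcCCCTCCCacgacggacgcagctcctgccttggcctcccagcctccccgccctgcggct
Irx3, minus strand, chr8:91802068-91802317: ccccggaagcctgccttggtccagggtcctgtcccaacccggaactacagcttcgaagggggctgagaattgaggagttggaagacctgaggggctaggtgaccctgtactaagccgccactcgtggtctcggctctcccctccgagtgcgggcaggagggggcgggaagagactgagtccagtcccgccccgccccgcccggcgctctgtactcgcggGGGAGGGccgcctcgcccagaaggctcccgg

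All 250 bases of the Chrna3 stretch and 127 of the Irx3 stretch lie within the mutant-only Foxa2 site. Neither holds the forkhead core. The Chrna3 stretch has 63.2% GC and 1 match each to the Sp1 and Klf words, and the Irx3 stretch has 68.8% GC and 1 match to the Sp1 word. The same stretches of Emx1 (55.6% GC) and Selplg (53.2% GC) were also searched and are not shown. Emx1 had 1 match to the Sp1 word and none to the Klf word or the forkhead core. Selplg had no match to any of these words, though all 250 bases lie within its mutant-only site. Over the stretches of 250 bases before all 20802 start sites with known sequence, 21.2% held the Sp1 word, 12.1% the Klf word and 2.67% the forkhead core. Before the 1926 start sites in the windows that gained both, the shares were 25.75%, 15.4% and 2.08%. Before the 4023 start sites in windows that gained lamin B1 and were in neither H3K9me3 list, they were 23.3%, 14.8% and 2.585%. For Sp1 and Klf only these exact words were searched, so other forms of their motifs were neither marked nor counted, also in the stretches shown. A match describes these letters and is no evidence that a factor binds.

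The gains of lamin B1 and of H3K9me3 fell together. Among 146669 windows in neither young list, 32.8% gained lamin B1 and 20.1% gained H3K9me3. H3K9me3 was gained in 43.05% (42.6 to 43.5%) of the windows that gained lamin B1 and in 8.94% (8.76 to 9.12%) of those that did not. Read the other way, 70.2% of the windows that gained H3K9me3 gained lamin B1 as well. The share was higher in windows that gained lamin B1 on 19 of 19 chromosomes, by 19.02 to 47.9 percentage points. Because the same lists chose the windows, these shares are a description.

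GC content moved with both gains. The mean GC content was 44.06% over the windows of the young lamin B1 list and 45.85% over those of the old, 40.75% over the young H3K9me3 list and 44.75% over the old. When the windows were sorted into 8 bins of GC content, the share that gained H3K9me3 was higher in each bin where lamin B1 was gained. In windows of 44 to 46% GC, H3K9me3 was gained in 41.2% of those that gained lamin B1 and in 19.6% of those that did not. Without the lamin B1 gain, that share was the highest of the 8 bins, and it was lower in the bins richer in GC. At 50% GC and over, the shares were 57.7% (56.5 to 58.9%) and 8.98% (5.52 to 14.3%). The lamin B1 gain itself rose from bin to bin with GC content. It was found in 0.4622% of these windows under 38% GC, 71.28% at 44 to 46% and 93.3% at 48 to 50%. Of the 6794 windows at 50% GC and over, only 15 gained H3K9me3 alone and 152 gained neither mark. The share without the lamin B1 gain therefore rests on few windows there. The sequencing depth also differed between the ages, with more aligned reads listed for old than for young H3K9me3 and fewer for old than for young lamin B1. The part of GC content and of depth in the gains was not tested.

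**Figure D1:**
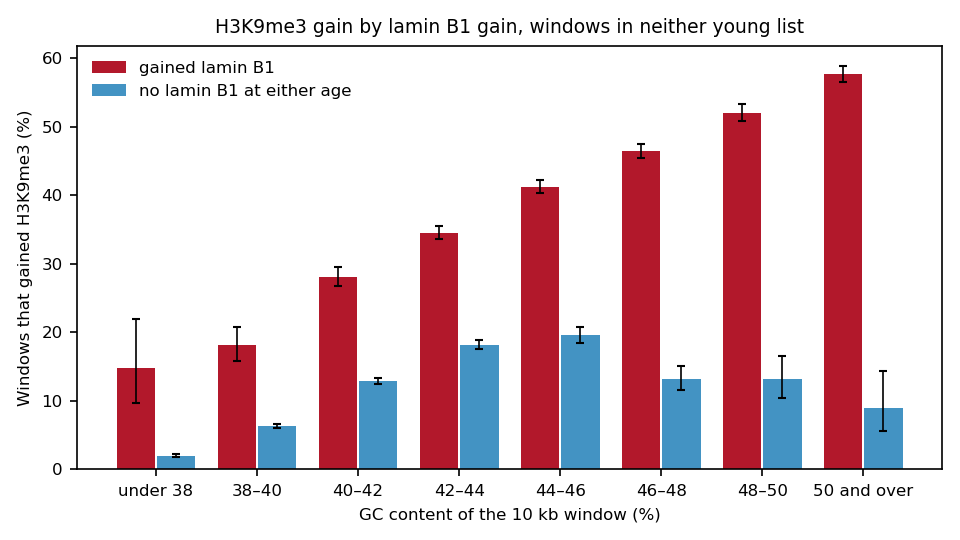
Share of windows that gained H3K9me3 (y axis, %) by GC content of the window (x axis, %), for windows in neither young list that gained lamin B1 (red) or had no lamin B1 at either age (blue), with 95% Wilson intervals that cover counting error only. The red bar is above the blue bar in each of the 8 bins, for example 41.2% against 19.6% at 44 to 46% GC.

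The windows lay side by side in 1365 runs. A run measured 100 kb in the median, with quartiles of 50 and 190 kb, and 93 runs were single windows. The 65 runs of at least 500 kb held 21.5% of all member windows and were present on 18 of the 19 chromosomes. Runs varied widely in content: GC content ranged from 38.9 to 56.3% around a median of 46.2%, and between 0 and 19 protein-coding start sites lay in a run. No start site lay in 610 runs (44.7%), among them 69 of at least 200 kb.

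The longest run, 1380 kb on chromosome 15 from 73430001 to 74810000, also held the most start sites, 19. It began with Dennd3, Slc45a4, Gpr20 and Ptp4a3, crossed a long stretch without protein-coding genes between Mroh5 and Adgrb1, and ended in the cluster of small Ly6-type genes with Slurp1, Lynx1, Psca and Ly6d and the neuronal activity gene Arc. Its GC content was 50.1%, and it held 3 Foxa2 sites of the mutants and 0 of the wild type. Windows with lamin B1 gained and no H3K9me3 bordered it on both sides. The next longest run was 1160 kb on chromosome 13 (43550001 to 44710000), with 3 start sites (Mcur1, Rnf182 and Cd83) and 7.22% of its length in gene bodies. On chromosome 11 a run of 960 kb from 118270001 held 14 start sites, among them Timp2, an inhibitor of matrix metalloproteases, Rbfox3, a splicing factor of neurons, and Cbx2, a Polycomb gene. A run of 900 kb on chromosome 4 from 153940001 held 15, with Prdm16, a methyltransferase-family factor of brown fat, and Trp73, a relative of p53.

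Other long runs had few start sites. The run of 930 kb around Irx2 on chromosome 13 (72070001 to 73000000) had 0.578% of its length in protein-coding gene bodies and 1 start site. A run of 900 kb on chromosome 15 from 87790001, with Zdhhc25 alone, had 0.482%, and it held 4 mutant-only Foxa2 sites. The run of 890 kb on chromosome 16 with Runx1, a factor of blood cell development, had a single start site and 29.9% of its length in gene bodies. Of the 65 longest runs, 24 had at most 1 start site, 6 had 10 or more and 7 had under 5% of their length in gene bodies. Long genes were also taken in whole: Csmd2 (579.8 kb), Rbfox3 (421.8 kb) and Cdh23 (393.7 kb), a cadherin of hair cells, lay wholly in member windows.

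**Figure D2:**
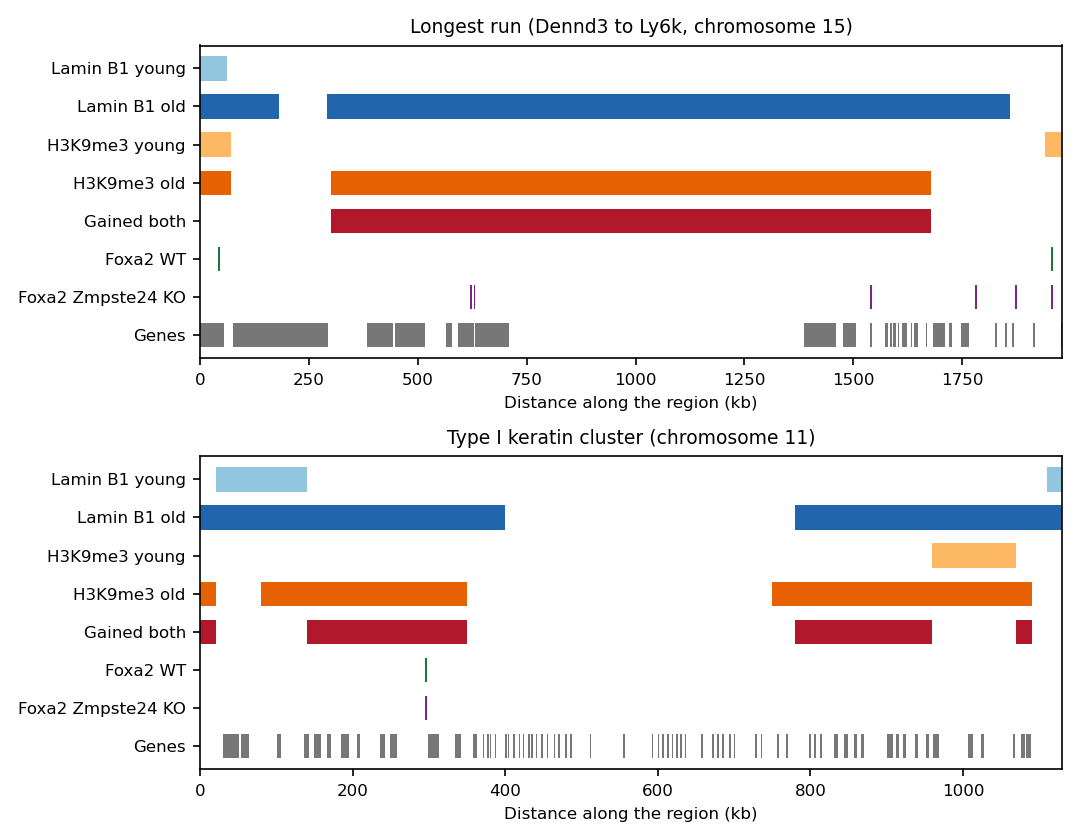
Called regions (coloured bars, 1 row per list), runs of windows that gained both (red) and protein-coding genes (grey) along the longest run on chromosome 15 with its surroundings and along the type I keratin cluster on chromosome 11, with the distance along each region in kb on the x axis. Lamin B1 and H3K9me3 of old liver span the 1380 kb of the longest run, where the rows of young liver are empty, and the keratin cluster has 2 larger blocks of 210 and 180 kb, with a stretch in no list between them, and shorter pieces at its ends.

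The windows lay at widely varying distances from the domains of young liver. In all, 18.9% lay within 30 kb and 40.1% within 100 kb of either young list. Taken by list, 8.84% (8.46 to 9.23%) lay within 30 kb, the gap over which the caller joins windows, of a young lamin B1 domain, with a median gap of 355 kb, and 11.3% lay within 30 kb of a young H3K9me3 region, with a median gap of 300 kb. More than 1 Mb separated 19.8% of them from the nearest young lamin B1 domain. At the 2730 ends of the runs, the adjoining window had most often gained lamin B1 without H3K9me3 (42.4%), followed by windows that gained lamin B1 where H3K9me3 was present at both ages (24.65%) and windows with lamin B1 at both ages that gained H3K9me3 (17%). Only 3.59% of the ends faced a window in no list. Of the 1517 old lamin B1 domains, 684 held a member window, and 294 of these held no young lamin B1 window. The domains that did hold one carried 13981 of the member windows (67.4%).

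The share differed widely between chromosomes. Member windows made up 14.2% of chromosome 11, 13.6% of chromosome 7 and 13.5% of chromosome 8, but 4.94% of chromosome 10 and 2.67% of chromosome 3, with a median of 8.92%. Chromosome 11 had the highest GC content of the 19 (43.8%) and chromosome 3 the lowest (40.45%). The order did not follow GC content throughout: chromosome 8 had 42.4% GC, below the 42.7% of chromosome 9, where 8.92% of windows were members. Along the chromosomes the share was highest at the distal end. It was 4.125% in the first of 10 equal parts, next to the centromere, 14.15% in part 9 and 17.35% in part 10. GC content was 44.2% in part 10 and 40.98% in the first. Between them the rise was not steady, with 7.325% in part 3, 5.098% in part 4, 8.04% in part 5 and 6.187% in part 6. In the last 5 Mb of the chromosomes 16.3% of windows gained both.

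**Figure D3:**
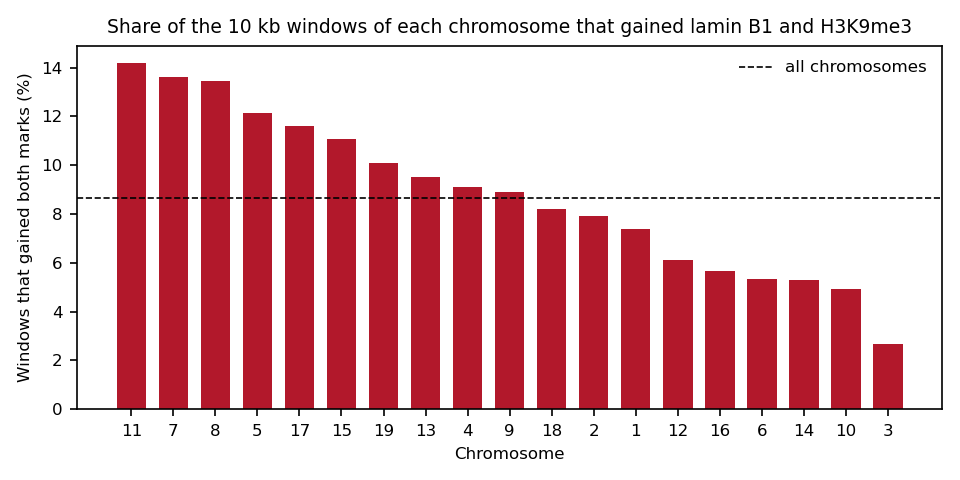
Share of the 10 kb windows of each chromosome that gained lamin B1 and H3K9me3 (y axis, %), with chromosomes ordered by that share on the x axis and the share over all 19 as a dashed line. Chromosomes 11, 7 and 8 stand at 13.5 to 14.2% and chromosome 3 at 2.67%.

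To see what set the jointly gained windows apart, they were compared with the 27414 windows that gained lamin B1 but were in neither H3K9me3 list. Both classes were richer in GC than the genome as a whole: 46.8 ± 3.43% (SD over windows) where both marks were gained, 45.5 ± 3.34% where only lamin B1 was, and 41.9 ± 4.39% over all windows. Windows that lost both marks had 38.9 ± 2.42%. Masked repeats covered 23.9% of the jointly gained windows, 25.8% of the lamin-only windows, 35.8% of the windows that lost both and 33.5% of all windows. GC content was higher than in lamin-only windows on 18 of 19 chromosomes, and repeats were lower on 19 of 19.

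The jointly gained windows held fewer genes. Protein-coding start sites numbered 9.29 per Mb against 14.7 per Mb in lamin-only windows, a ratio of 0.633 (0.5997 to 0.669), and were fewer on 19 of 19 chromosomes. When lamin-only windows were weighted to the same GC content, a comparison chosen after seeing the data, the ratio was 0.522. Gene bodies covered 49.5% of the jointly gained windows and 58.15% of the lamin-only windows, and exons 4.54% and 6.37%. The density over the whole genome was 8.69 start sites per Mb, so the jointly gained windows were near that average and not poor in genes.

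Of 20807 protein-coding genes, 1926 (9.26%) had their start site in a jointly gained window, and 1561 of these (81.05%) lay wholly inside such windows. Their median length was 17.2 kb, against 17.6 kb over all genes. The gene lists were drawn up with earlier results of these data known, and are described by counts beside that share and beside the 19.3% of all genes that start in lamin-only windows. Genes of a list often lie next to each other and then share a run.

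Keratins, the intermediate filaments of epithelia, skin and hair, led the lists with 30 of 53 start sites (56.6%, 43.3 to 69.05%), all in 5 runs. On chromosome 11, which holds the type I cluster, 20 of 27 were members, and on chromosome 15, which holds type II, 10 of 26. Krt10 of the skin's upper layers lay in a run of 210 kb, and Krt7, Krt80, Krt81, Krt87 and Krt88 shared a run of 330 kb. Another 14 keratin start sites gained lamin B1 without H3K9me3, 13 of them on chromosome 15. A single keratin gene start of the 53 had no lamin B1 at either age.

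Collagens followed with 12 of 42 (28.6%), in 10 runs. They included Col1a1, the main fibrillar collagen of scar and bone, Col4a1 with Col4a2, Col5a1, and the neighbours Col6a1 and Col6a2. Homeobox, paired, Sox and T-box factors outside the Hox clusters had 25 of 98 (25.5%) in 23 runs, among them Irx2, Irx3 and Irx4, the neural factors Sox1 and Sox8, and Pax2 of the kidney. Potassium, sodium and calcium channels had 33 of 131 (25.2%) in 29 runs, with Kcnk1, Kcnk2, Kcnc1 and Kcnj11. Kcnj11, the pore of the beta cell's ATP-sensitive channel, shared its run of 670 kb with Abcc8, the regulatory subunit of the same channel.

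Hox genes, which pattern the body axis, had 8 of 39 (20.5%), in 2 runs. Of these 6 were in the Hoxc cluster, where Hoxc9 to Hoxc13 with Hoxc5 lay in a run of 100 kb, and 2 in the Hoxb cluster. None of the Hox genes of chromosomes 2 (9 genes) and 6 (11 genes) was a member. Only 2 of the 8 lay more than 30 kb from every young call (5.13%, against 7.07% of all genes on that limit). All other Hox starts but 1, 30 of 39, had lamin B1 at both ages.

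**Figure D4:**
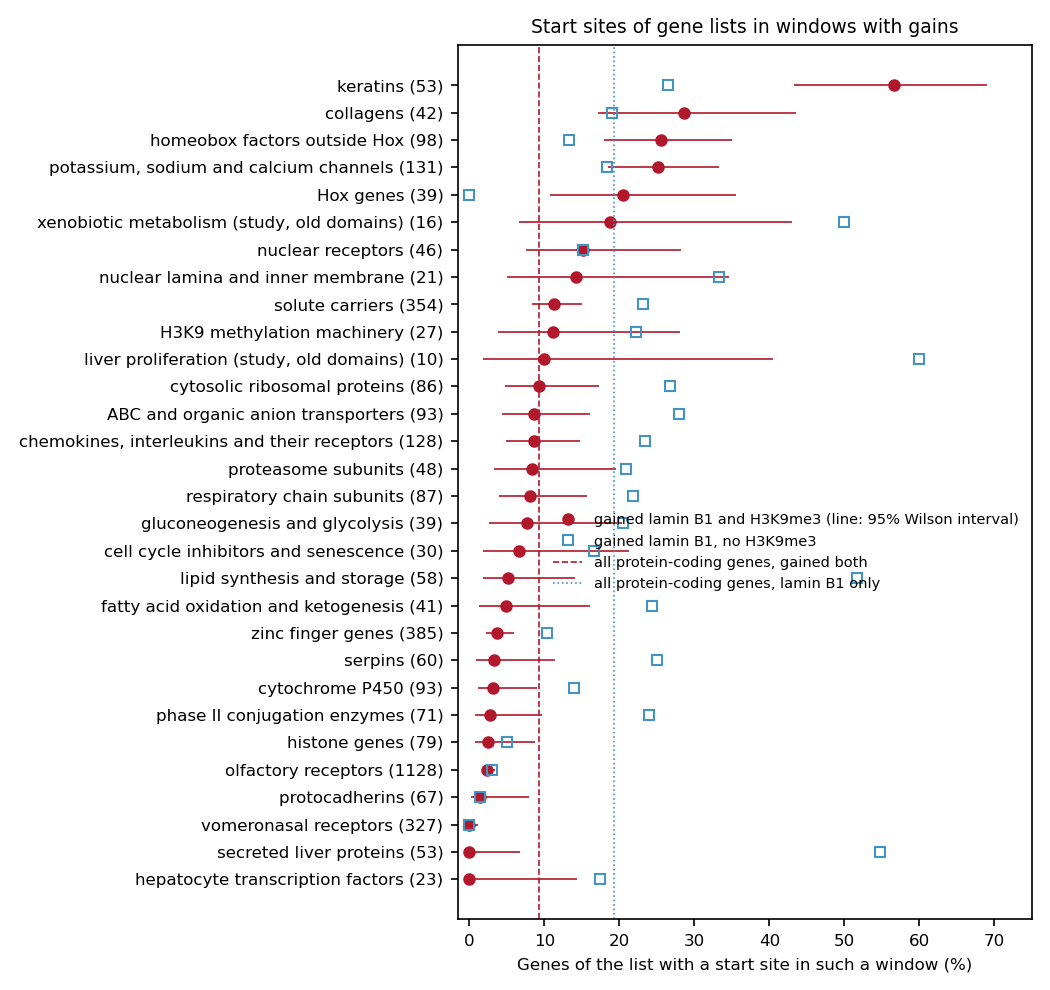
Share of the genes of each list (x axis, %) with the start site in a window that gained both marks (red points, with 95% Wilson intervals that cover counting error only) or gained lamin B1 and was in neither H3K9me3 list (blue squares), with the number of annotated genes after each name and dashed and dotted lines for all protein-coding genes. Keratins stand at 56.6% for the joint gain, while secreted liver proteins stand at 0% for the joint gain and 54.7% for lamin B1 alone.

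None of 53 genes for proteins that the liver secretes into plasma started in a jointly gained window, which allows a share of up to 5.66%. This limit and those given beside other counts of 0 stand for 3 counts over the number of genes, and are not Wilson bounds. But 29 of the 53 (54.7%) gained lamin B1 without H3K9me3, including the apolipoprotein genes Apoa1 and Apoe, the acute-phase genes Saa1 and Saa2 and the haptoglobin gene Hp. Another 14, with Alb, Apob and the fibrinogen genes Fga, Fgb and Fgg, had no lamin B1 at either age. These examples were chosen after their values were seen. Of 23 hepatocyte transcription factors 0 were members, which allows a share of up to 13.04%, above the 9.26% of all genes, and 16 had lamin B1 at both ages.

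Of 58 genes of lipid synthesis and storage 3 (5.17%, 1.775 to 14.1%) were members: Fasn, the fatty acid synthase, in a run of 80 kb, Agpat3, an acyltransferase of phospholipid and triglyceride synthesis, in a run of 500 kb, and Lipc, the hepatic lipase, of whose 17 windows 1 was a member. Counted by any overlap of the gene body in place of the start site, the list had 13.8%, against 12.6% of all genes. A further 30 of the 58 starts (51.7%) were in lamin-only windows. Fatty acid oxidation had 2 of 41, Acaa1b and Etfb. Gluconeogenesis and glycolysis had 3 of 39 (7.69%, 2.65 to 20.3%), including Slc2a1, a glucose transporter, in a run of 260 kb. Cytochromes P450 had 3 of 93, Cyp19a1, Cyp2w1 and Cyp4f39, and phase II enzymes 2 of 71, Sult2b1 and Sult4a1.

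Nuclear receptors had 7 of 46 (15.2%, 7.57 to 28.2%). They included Vdr, the vitamin D receptor, Nr4a1, and Nr1h2, the liver X receptor beta, with its partner Rxrb. Of the lamina genes Lmnb2, which encodes lamin B2, Lemd2 and Syne3 were members, 3 of 21 (14.3%, 4.98 to 34.6%). Of the H3K9 methylation genes 3 of 27 (11.1%, 3.85 to 28.1%) were members, Uhrf1 and the demethylase gene Kdm4b in a run of 130 kb and Prdm16. The intervals of these lists all hold the 9.26% of all genes. The study's own xenobiotic genes of old-only lamin B1 domains, chosen on the old lamin B1 list, had 3 of 16 (Aldh18a1, Hs3st4 and Mgmt) and its liver proliferation genes 1 of 10 (Igf1r), and are no independent evidence.

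Housekeeping genes were near the share of all genes, with 8 of 86 cytosolic ribosomal protein genes (9.30%), 4 of 48 proteasome genes (8.33%) and 7 of 87 respiratory chain genes (8.05%). Lamin B1 at both ages, which bars membership, was found at 51.2, 43.75 and 50.6% of their starts, against 33.5% of all starts. Solute carriers had 40 of 354 (11.3%), transporters of the ABC and organic anion families 8 of 93 (8.60%), chemokines, interleukins and their receptors 11 genes (8.59%), and cell cycle inhibitors and senescence genes 2 of 30, Ccnd2 and Gadd45b. Several families often found in clusters had lower shares: 27 of 1128 olfactory receptors (2.39%), 14 of 385 zinc finger genes (3.64%), 1 of 67 protocadherins, 2 of 79 histone genes, 2 of 60 serpins and 0 of 327 vomeronasal receptors, which allows a share of up to 0.917%. Nearly all olfactory receptor starts, 90.8%, had no lamin B1 at either age.

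The jointly gained windows held 6.86% of the 8051 mutant sites and 6.82% of the 4912 wild-type sites, in 8.65% of the windows. Mutant sites numbered 2.66 per Mb, against 4.77 in lamin-only windows 5.33 in windows with both marks at both ages, 3.08 in windows that lost both and 3.36 over all windows. Wild-type sites numbered 1.61 per Mb, against 3.95, 4.195, 1.38 and 2.05 in the same order. The value for windows that lost both rests on 47 wild-type sites, against 334 in the jointly gained windows, and their difference was not tested. The mutant and the wild-type densities were both below those of lamin-only windows on 19 of 19 chromosomes.

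Set against lamin-only windows, the ratio was lowest for sites called in both genotypes. These numbered 0.265 per Mb (0.1999 to 0.345) against 1.44 (1.30 to 1.59) in lamin-only windows, a ratio of 0.184 (0.139 to 0.244), and were fewer on 19 of 19 chromosomes. Windows that lost both marks had 0.323 such sites per Mb and all windows 0.5635. Wild-type-only sites numbered 1.346 per Mb (1.193 to 1.514) in the jointly gained windows, against 1.491 over all windows. Mutant-only sites numbered 2.393 (2.187 to 2.614), against 2.795. The ratio to lamin-only windows was 0.529 (0.461 to 0.608) for wild-type-only sites and 0.719 (0.644 to 0.802) for mutant-only sites, with fewer on 18 and 17 of the 19 chromosomes. Thus 10.1% (7.89 to 12.9%) of the 552 mutant sites in the jointly gained windows were also called in the wild type. The share was 30.2% (27.8 to 32.7%) of 1308 in lamin-only windows and 14.6% (13.7 to 15.5%) of 6191 in all other windows. Among those others, 11 of 105 were shared in windows that lost both marks and 72 of 249 in windows with both marks at both ages. A low share was therefore not particular to the jointly gained windows. Mutant reads had been downsampled to the wild-type number by the authors before calling.

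**Figure D5:**
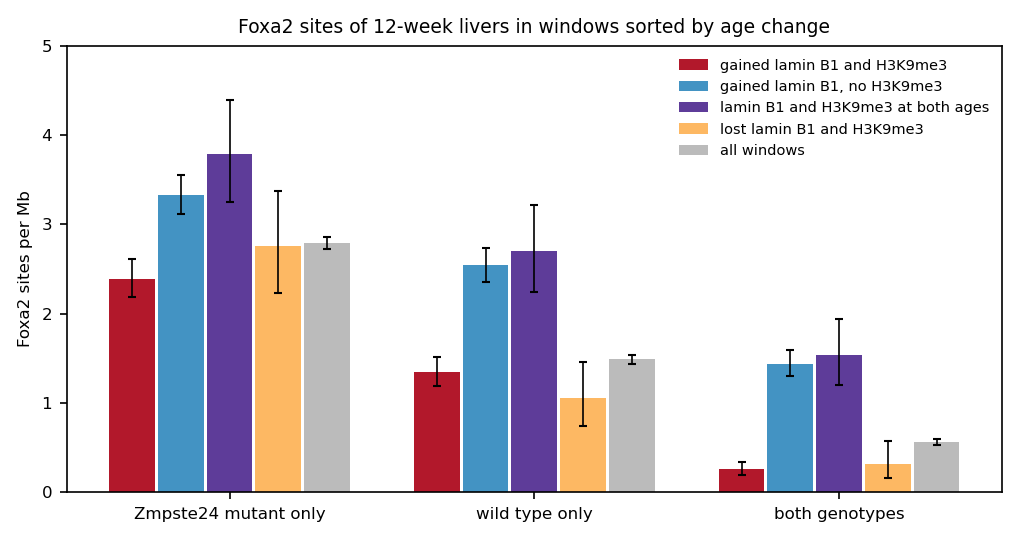
Foxa2 sites per Mb (y axis, from 0) called in Zmpste24 mutants only, in the wild type only or in both genotypes (x axis), in windows sorted by their lamin B1 and H3K9me3 calls in young and old liver (colours), with 95% exact Poisson intervals that cover counting error only. Sites of both genotypes stand at 0.265 per Mb where both marks were gained and at 1.44 per Mb where only lamin B1 was.

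The densities were also counted apart in windows with and without a start site. In jointly gained windows without a start site there were 2.63 mutant sites per Mb, against 4.39 in lamin-only windows without one, and with a start site 3.00 against 7.30. The middle of a mutant site lay 49.0 kb in the median from a protein-coding start in the jointly gained windows and 46.2 kb over all mutant sites. For wild-type sites the medians were 38.8 and 26.0 kb. The part of gene content in the densities was not tested.

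The forkhead core was found in 13.5% (10.8 to 16.8%) of the 496 mutant-only sites in the jointly gained windows, in 21.4% (18.8 to 24.1%) of the 913 in lamin-only windows and in 19.7% (18.6 to 20.8%) of those elsewhere. These sites had a median width of 981.5, 908 and 930 bp and a mean GC content of 46.8, 45.98 and 41.65%. Of the sites called in both genotypes the core was in 37.5% (26.0 to 50.6%), 42.5% and 43.0%, so the intervals overlap there. The part of base composition in these shares was not tested.

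The words of the motifs of interest were counted over the whole windows too, on both strands. The forkhead core occurred 0.131 times per kb in the jointly gained windows, 0.142 in lamin-only windows, 0.180 in windows that lost both and 0.157 over all windows. The GATA word AGATAA had 0.551, 0.597, 0.864 and 0.740 per kb. Words rich in C and G went the other way. The Sp1 word CCCTCCC had 0.616, 0.537, 0.310 and 0.411 per kb, and the Klf word GGGCTGG 0.394, 0.361, 0.1502 and 0.246. Other forms of the Sp1 and Klf motifs were not counted. The Sox word (CC, then A or T, then TTGT) differed least, with 0.384 and 0.383 per kb in the first pair of classes. The pair of AGGTCA half-sites 1 base apart that nuclear receptor dimers bind was rare, 0.00387 against 0.00305 per kb.

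Weighted to the same GC content, a comparison chosen after seeing the data, the ratio of jointly gained to lamin-only windows moved from 0.925 to 0.984 for the forkhead core, from 0.924 to 1.002 for GATA and from 1.091 to 0.975 for Klf. The Sp1 ratio moved from 1.146 to 1.048 and that of the half-site pair from 1.266 to 1.163. The ratios of Foxa2 sites after the same weighting were 0.533 (mutant) and 0.364 (wild type), against 0.557 and 0.408 before.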

How the data were processed

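For each antibody, reads had been mapped by the authors onto mm10 using BWA, cleared of duplicates, limited to unique alignments and pooled over the replicates. Epic was then run by the authors for lamin B1, in 10 kb windows that may join over 3 windows, so some windows are gaps filled by the caller, and PeakSeq, with an input control, for Foxa2. The methods name no caller for the H3K9me3 regions, and the submitters' processing notes list SICER. The deposited H3K9me3 lists are shorter than the study describes, which bears on what counts as gained, absent or lamin-only. The 6 deposited lists hold positions alone and give neither signal nor score. Depth is known for pooled conditions only. H3K9me2 and Foxa2 in old liver were not analysed here.

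Windows of chromosomes 1 to 19 were assigned to the lists, and adjacent members joined to runs. The members and gene lists were chosen with earlier results of these data known. Coordinates count the first base as 1. Genes are those of GENCODE vM21 and sequence that of GRCm38 from RefSeq, with its masked repeats. Foxa2 sites were placed by their midpoint and called shared at 1 bp of overlap. Only windows with at most 50% N entered shares by class, GC content or chromosome and densities, while distances, runs, genes and numbers of Foxa2 sites used all windows. Ratios carry an interval from the binomial share of counts. Symbol patterns of 4 gene lists (ribosomal proteins, proteasome, collagens, solute carriers) were narrowed after their counts were seen, to drop genes of other function such as the S6 kinase genes. The code was checked on simulated data. Named genes are those of the 5 longest runs (up to 5 each), up to 6 of each gene list in the longest runs, and the 6 start sites closest to a mutant-only Foxa2 site. Further genes of the longest runs and of the list counts were named after their values were seen. Alternatives are given at the end. Python 3.11.15, numpy 2.4.6, pandas 2.3.3, scipy 1.17.1 and matplotlib 3.10.9 were used.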

Additional observations from a re-analysis of the deposited data

How the results depend on the processing

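The lists are merged calls without scores, so leaving out a replicate or raising the threshold could not be tried. No paired analysis was possible because each list pools its replicates. Of 62 alternatives, 29 left a value within its counting interval (for counts of windows, runs or genes, within 1.5 times), 30 moved it and 3 turned a ratio to the other side of 1. With windows more than 30 kb from every young interval, 16819 members were kept, and 7464 lay in old lamin B1 domains of at most 1 Mb. On this 30 kb limit chromosome 11 had 11.56% members, the start site ratio to lamin-only windows was 0.5956, the Klf and Sp1 ratios 1.068 and 1.134, GC content 46.75% and repeats 23.11%. The share near young lamin B1 was 4.843% at a limit of 10 kb, 21.18% at 100 kb and 8.409% in runs of at least 3 windows, and that near young H3K9me3 6.445%, 24.74% and 10.57%. In such runs GC content was 46.82%.

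The start site ratio was 0.747 over all annotated genes and 0.8067 for gene bodies. For Foxa2 sites over 5 kb from a start site the ratios were 0.6291 (mutant), 0.4819 (wild type), 0.8018 (mutant-only) and 0.638 (wild-type-only), all still under 1. Without masked bases GC content was 47.87% and the word ratios 0.9063 (forkhead), 0.9117 (GATA), 1.148 (Klf), 1.158 (Sp1) and 0.997 (Sox), the last on the other side of 1 from its value of 1.002. With the forkhead word TGTTTRC the ratio was 0.9651. Weighting to equal GC content, chosen after seeing the data, gave 0.522 for start sites, 0.9844 for forkhead, 1.018 for Sox and 1.048 for Sp1, and turned GATA (1.002) and Klf (0.975) to the other side of 1. Of the 30 gene lists, 27 stayed on their side of the share of all genes when counted by gene bodies, with lipid synthesis, ABC and organic anion transporters and ribosomal proteins crossing it, and 26 on the 30 kb limit, with Hox, liver proliferation, ribosomal and respiratory chain genes crossing it. The causes of these moves were not tested.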
